A study of Mus musculus with 37 samples.

Results

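Glycolysis and the response to low oxygen were followed through 36 genes, chosen by name from the 39017 genes of the count table. They comprise 20 genes of glucose uptake, glycolysis and lactate handling, here called the glycolysis genes, and 16 genes of the hypoxia response, here called the hypoxia genes. RNA had been sequenced in bulk from tumours that grew under the skin of C57BL/6 mice for 3 weeks after implantation of pancreatic tumour cell clones. No treatment was given, and all mice were of the C57BL/6 strain. The sources used here state neither the age and sex of the mice nor how the T cell phenotype of a clone was measured. By their labels, 7 clones (15 tumours) were T cell high, 7 clones (15 tumours) T cell low and 2 clones (4 tumours) T cell intermediate, and 3 tumours carried no phenotype. Each clone is one implanted cell population, named here as in the titles (bulk_6556c4, for example), so clones and not tumours were the replicates.

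The libraries fall into 2 classes that the labels do not name. In 17 of the 34 labelled libraries, Myh6, Myh7, Cps1 and Serpina3k, which belong to heart muscle and liver, summed to between 258 and 5922 CPM (counts scaled to the total of the library), against 0.065 to 0.538 CPM in the other 17. The class followed the tumour number in the titles: all 16 tumours numbered 1 held these transcripts, against 1 of 18 with a number above 1, the tumour of bulk_2669c4 numbered 2. Class and tumour number can therefore hardly be told apart. Several libraries with these transcripts were nearly the same although they carry the names of different clones. For the closest pair of different clones, the tumours numbered 1 of bulk_6499c4 and bulk_6555c3, the chi-squared value per gene was 2.90, against 36.1 for the closest pair of tumours of one clone. The phenotypes were therefore compared over the libraries without these transcripts: 8 libraries from 7 high clones, 2 from 2 intermediate clones and 7 from 6 low clones, with total counts of 26.5 to 44.4 M each. Within that class the tumours numbered 2 of bulk_6499c4 and bulk_6555c3, both T cell high, had a chi-squared value of 41.8, close to that of tumours of one clone. Only clones bulk_2669c4 and bulk_2838c3 gave 2 tumours in this class, so elsewhere the clone and its tumour cannot be told apart. The class names refer to Myh6, Myh7, Cps1 and Serpina3k only. In the class without, longer lists of 6 heart and 8 liver genes still summed to 17.3 to 477.6 CPM and 2.92 to 377 CPM per clone. The highest level of any 1 heart gene was 474.7 CPM, so 1 gene made up nearly all of the highest heart sum. Pancreatic duct markers summed to 4364 to 10600 CPM per clone. T cell genes summed to 4.89 to 18.04 CPM in high clones, 1.92 to 13.4 CPM in low clones, and 8.59 and 36.2 CPM in the intermediate clones bulk_6422c5 and bulk_7160c5, so the ranges of high and low overlapped. In bulk RNA, fewer cells of a type and less RNA per cell cannot be told apart.

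Glycolysis splits glucose into pyruvate and yields ATP without oxygen. Tumour cells often run it fast, turn pyruvate into lactate and export the lactate together with acid. When oxygen is scarce, the prolyl hydroxylases encoded by Egln1 and Egln3 no longer mark the factors HIF-1α (Hif1a) and HIF-2α (Epas1) for destruction, and these factors then switch on genes whose promoters or enhancers carry the core letters ACGTG or GCGTG. Many of those targets are the glycolytic genes themselves, and pancreatic tumours are known for their poor blood supply. The oxygen control of Hif1a and Epas1 acts mostly on the protein, which RNA counts do not show.

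The 250 bases before a RefSeq start (GRCm38.p6) were searched for ACGTG and GCGTG on both strands, a palindromic CACGTG counting once on each strand. Promoters were listed for 33 of the 36 genes, and not for Bnip3l, Epas1 and Ndrg1. At least 1 match lay in a promoter of 29 of these 33 genes (87.9%), namely 17 of 20 glycolysis genes and 12 of 13 hypoxia genes. Over all 27025 genes with a listed promoter the share was 41.5%. Those genes were not matched to the members in base composition, level or number of promoters, so the shares are no test of an excess. For 35 of 46 promoters of the members, the 50 bases after the start lay in a GENCODE transcript of the gene. A match is a run of letters and no measured binding. Shown here are promoters of genes whose levels are given below, chosen to span the range from 5 matches in Ldha and Bnip3 to none in Car12, each 5′ to 3′ on the strand of its gene, with the matches in capitals. They lie at chr3:104638414-104638663 (+) for Slc16a1, chrX:106186850-106187099 (+) for Pgk1, chr7:46845554-46845803 (+) for Ldha, chr10:59951771-59952020 (-) for Ddit4, chr7:138909507-138909756 (-) for Bnip3, chr4:43506776-43507025 (+) for Car9 and chr9:66713436-66713685 (+) for Car12.
Slc16a1: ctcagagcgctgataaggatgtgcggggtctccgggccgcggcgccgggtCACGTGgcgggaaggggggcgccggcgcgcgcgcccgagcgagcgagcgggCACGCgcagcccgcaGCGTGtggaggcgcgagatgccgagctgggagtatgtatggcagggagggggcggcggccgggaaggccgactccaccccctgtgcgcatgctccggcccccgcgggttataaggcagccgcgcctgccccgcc
Pgk1: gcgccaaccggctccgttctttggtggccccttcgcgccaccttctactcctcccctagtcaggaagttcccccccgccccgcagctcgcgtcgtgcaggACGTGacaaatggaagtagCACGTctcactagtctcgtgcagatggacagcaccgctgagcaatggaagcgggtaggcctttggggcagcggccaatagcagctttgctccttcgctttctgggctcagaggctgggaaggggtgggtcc
Ldha: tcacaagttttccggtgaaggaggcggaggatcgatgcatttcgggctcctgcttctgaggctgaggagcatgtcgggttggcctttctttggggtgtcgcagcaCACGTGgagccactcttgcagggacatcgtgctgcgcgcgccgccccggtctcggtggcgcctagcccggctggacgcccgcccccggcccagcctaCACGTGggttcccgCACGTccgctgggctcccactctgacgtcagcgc
Ddit4: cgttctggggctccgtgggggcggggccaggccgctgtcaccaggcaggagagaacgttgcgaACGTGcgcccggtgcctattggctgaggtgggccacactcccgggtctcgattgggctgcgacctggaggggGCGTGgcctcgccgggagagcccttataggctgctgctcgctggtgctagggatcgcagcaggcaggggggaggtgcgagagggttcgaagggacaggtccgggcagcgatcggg
Bnip3: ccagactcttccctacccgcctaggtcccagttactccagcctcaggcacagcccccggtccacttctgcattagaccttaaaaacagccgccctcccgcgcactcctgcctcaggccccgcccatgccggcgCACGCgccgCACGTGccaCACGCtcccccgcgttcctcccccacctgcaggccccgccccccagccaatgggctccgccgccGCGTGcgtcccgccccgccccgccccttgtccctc
Car9: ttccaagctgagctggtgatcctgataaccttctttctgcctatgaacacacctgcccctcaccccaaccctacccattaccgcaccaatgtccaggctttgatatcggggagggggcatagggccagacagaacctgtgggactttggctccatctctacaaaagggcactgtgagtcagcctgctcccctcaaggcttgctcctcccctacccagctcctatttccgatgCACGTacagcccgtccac
Car12: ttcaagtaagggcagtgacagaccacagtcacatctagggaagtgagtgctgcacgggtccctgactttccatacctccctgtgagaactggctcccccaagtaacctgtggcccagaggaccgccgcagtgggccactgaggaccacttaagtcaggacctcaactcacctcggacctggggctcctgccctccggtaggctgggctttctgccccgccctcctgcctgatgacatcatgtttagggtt

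Scaled by the length of the merged exons, the glycolysis genes were the most abundant of the 36. Per kilobase of exon, Pkm (pyruvate kinase) stood at 503 ± 136 CPM (SD, n = 15 clones), Gapdh at 419 ± 138, Ldha at 383 ± 117 and Aldoa at 366 ± 93.4. The 7 highest of the 36 genes were all glycolysis genes, and Ddit4 at 124 ± 42.1 and Vegfa at 106 ± 40.4 were the highest hypoxia genes. Ldhb at 2.14 ± 1.62, Eno2 at 0.714 ± 0.279 and Car12 at 0.705 ± 0.722 were the lowest. Gapdh, Eno1, Pgk1, Ldha, Aldoa, Tpi1 and Pgam1 have near-identical copies in the genome, and the sources used here do not say how reads that fit several places were counted, so their levels are uncertain. The counts per gene do not separate the isoforms of Pkm.

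For most enzymes with several genes, 1 gene held most of the length-scaled level. Eno1, the ubiquitous enolase, held 99.6% ± 0.197 (SD, n = 15 clones) of the sum of Eno1 and Eno2. Ldha, the muscle-type subunit of lactate dehydrogenase, held 99.3% ± 0.836 of Ldha and Ldhb. Its lowest share was 96.4%, in the intermediate clone bulk_7160c5. Aldoa held 96.4% ± 3.11 of Aldoa and Aldoc, with the lowest share, 86.4%, in the high clone bulk_7160c2. Car9, a membrane carbonic anhydrase that handles acid outside the cell, held 98.0% ± 1.52 of Car9 and Car12.

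Other pairs were shared more evenly. Pfkl, the liver type of phosphofructokinase, held 63.8% ± 5.09, Pfkm 22.9% ± 5.94 and Pfkp 13.3% ± 4.37. The lactate transporters Slc16a1 (MCT1) and Slc16a3 (MCT4) held 54.8% and 45.2% with an SD of 10.5, and Slc16a1 ranged from 35.8% in bulk_6620c1 to 68.5% in bulk_6499c3. Bnip3 held 53.9% ± 11.8 of Bnip3 and Bnip3l, a pair of mitophagy receptors. Egln3 held 53.7% ± 6.15 of Egln1 and Egln3. Hif1a held 75.1% ± 9.47 of Hif1a and Epas1, from 58.0% in bulk_7160c2 to 89.7% in bulk_6694c2. P4ha1, a collagen prolyl hydroxylase, held 75.4% ± 3.72 of P4ha1 and P4ha2, and 60.6% with the length of the longest transcript. Hk2, the inducible hexokinase, held 63.3% ± 5.51 and Hk1 36.7%, but with the length of the longest transcript Hk1 held 51.5%, so their order is not settled.

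**Figure D1:**
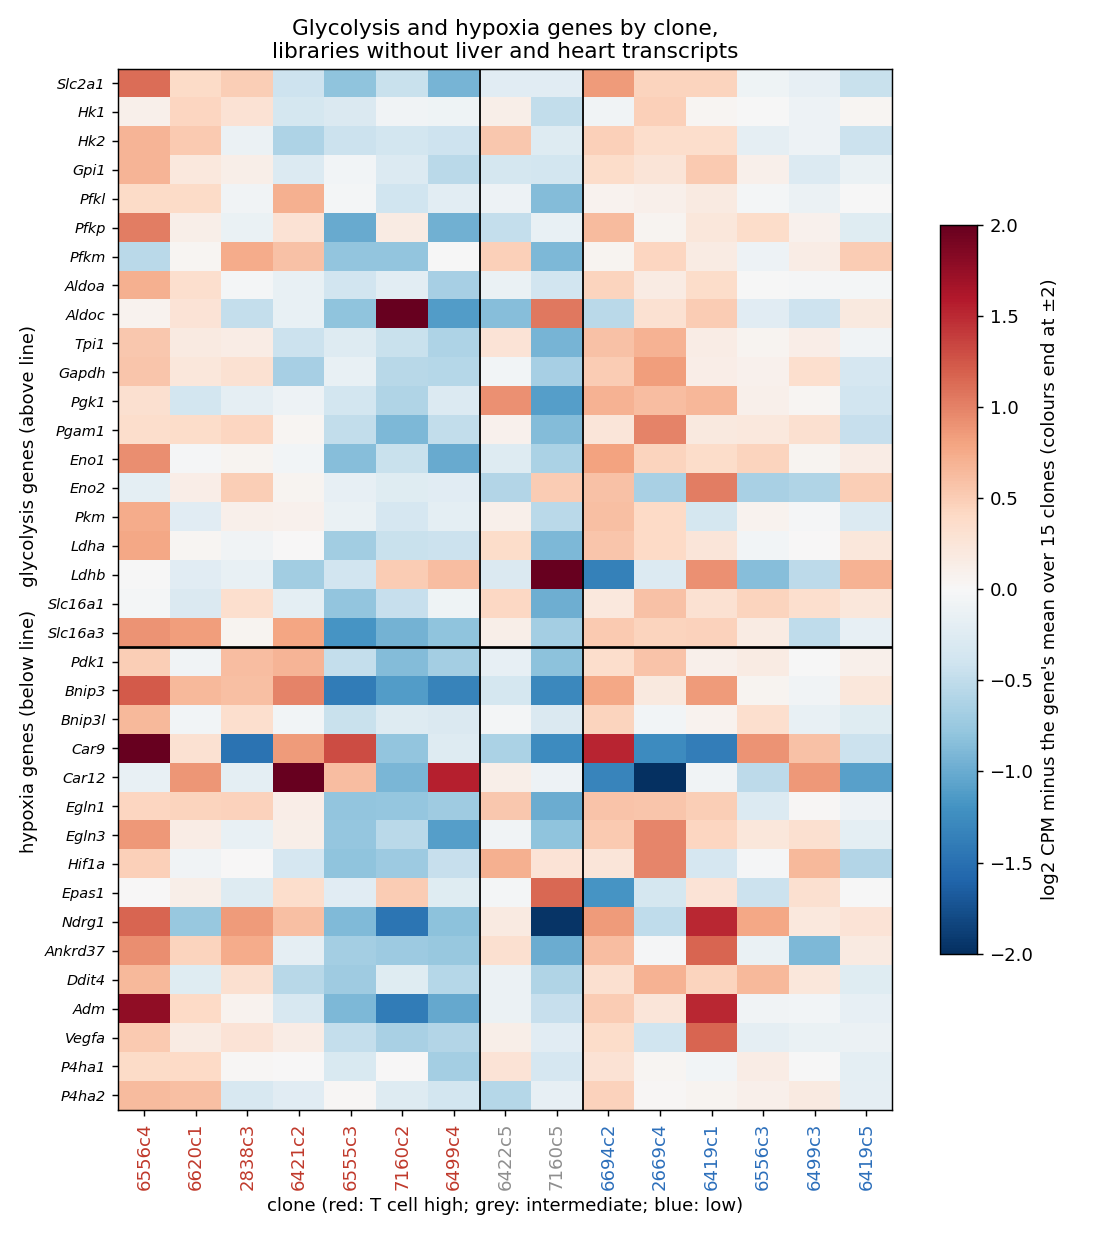
Level of each of the 36 genes (rows) in each of 15 clones (columns), as log2 CPM minus the mean of that gene over the clones. Only libraries of the class without liver and heart transcripts, as set by 4 genes, were used. Columns are ordered within each phenotype by the median of the glycolysis genes. Of 36 genes, 31 lie above their mean in bulk_6556c4 and 31 in bulk_6694c2, against 3 in bulk_6555c3, 5 in bulk_7160c2, 2 in bulk_6499c4 and 5 in bulk_7160c5, while Aldoc in bulk_7160c2, Ldhb in bulk_7160c5 and Car12 in bulk_6421c2 are single high values.

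No member passed the test between T cell high and T cell low clones. Their differences nevertheless leaned one way: 30 of 36 were below 0, meaning lower in high clones, 17 of 20 among the glycolysis genes and 13 of 16 among the hypoxia genes, with medians of -0.17 and -0.16 on the log2 scale. Over all 17905 genes tested, 50.4% of differences were below 0, edgeR called 0 genes (0.0%), and 6.52% had an unadjusted p under 0.05. DESeq2 called 35 genes, none of them a member. Of the 36 members, 3 had an unadjusted edgeR p under 0.05: Slc16a1 and Ddit4, which were lower, and Car12, which was higher. For no member were the 7 high clones and the 6 low clones fully apart, against 0.112% of all genes. Of the 36 differences, 27 were below 0 without bulk_6499c4 and 27 without bulk_6555c3, the 2 high clones that were nearly alike, with medians of -0.08 and -0.11. Leaving out any 1 clone gave 24 (without bulk_6419c1) to 31.

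Among the glycolysis genes, the smallest p belonged to Slc16a1, the lactate transporter MCT1 (chr3:104638668-104658462 in GENCODE M21, GRCm38). Slc16a1 measured 85.7 CPM in the lowest high clone, a median of 129 and 187 in the highest, against 171, 185 and 223 CPM in low clones. The ranges met only through bulk_2838c3, whose level exceeded those of 4 low clones, while the other 6 high clones lay below every low clone. The log2 difference was -0.54 (SE 0.20, edgeR adjusted p = 0.711).

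Pgk1, the phosphoglycerate kinase that makes the first ATP of glycolysis (chrX:106187100-106203699), measured 311, 391 and 591 CPM as lowest, median and highest of the high clones, and 361, 616 and 764 CPM in low clones. High and low clones overlapped, with bulk_6556c4 the highest of the high clones. The log2 difference was -0.55 (SE 0.27, edgeR adjusted p = 0.774).

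Eno1 (chr4:150236721-150248879) measured 469, 906 and 1781 CPM in high clones and 974, 1244 and 1630 CPM in low clones. A single high clone, bulk_6556c4, exceeded all low clones, and the other 6 lay below all of them. The log2 difference was -0.48 (SE 0.26, edgeR adjusted p = 0.796), and -0.74 without bulk_6556c4 (adjusted p = 0.481).

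Ddit4 codes for REDD1, an inhibitor of mTORC1 that stress and hypoxia induce (chr10:59949669-59951834). It measured 125, 173 and 321 CPM as lowest, median and highest of the high clones and 175, 268 and 333 CPM in low clones. Both bulk_6556c4 and bulk_2838c3 lay within the range of the low clones, and the log2 difference was -0.50 (SE 0.22, edgeR adjusted p = 0.758).

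Hif1a itself (chr12:73901375-73947530) measured 110.0, 153 and 269.6 CPM in high clones and 129, 208 and 380.5 CPM in low clones, with wide overlap. Its log2 difference was -0.47 (SE 0.26, edgeR adjusted p = 0.796), and -0.27 without the low clone bulk_2669c4, which had the highest level.

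Car12 (chr9:66713686-66766845) went the other way, on low levels. The high clones measured 1.99, 5.86 and 22.6 CPM and the low clones 0.773, 2.18 and 6.99 CPM. The ranges overlapped from 1.99 to 6.99 CPM, and the log2 difference was 1.46 (SE 0.58, edgeR adjusted p = 0.726). Car9, its far more abundant relative, measured 28.7, 99.1 and 326 CPM in high clones and 30.8, 90.2 and 231 CPM in low clones, and neither group stood above the other.

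Egln3, an oxygen-sensing hydroxylase, measured 54.9, 106 and 217 CPM as lowest, median and highest of the high clones and 104, 154 and 233 CPM in low clones (log2 difference -0.51, SE 0.28, edgeR adjusted p = 0.796). Ndrg1, a stress-induced gene, measured 113, 184 and 699 CPM in high clones and 219, 452 and 884.5 CPM in low clones (log2 difference -0.54, SE 0.47, edgeR adjusted p = 0.874). Both overlapped widely. The differences of the other 28 members lay between -0.37 (Gapdh) and 0.40 (Aldoc). Slc2a1, the glucose transporter GLUT1, averaged 282 ± 158 CPM (SD) over the 7 high clones and 314 ± 106 CPM over the 6 low clones. Gapdh averaged 1591 ± 544 and 2038 ± 558 CPM. Ldha averaged 1172 ± 436 and 1434 ± 231 CPM. Vegfa, which codes for the main growth factor of blood vessels, averaged 425 ± 135 and 504 ± 238 CPM.

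**Figure D2:**
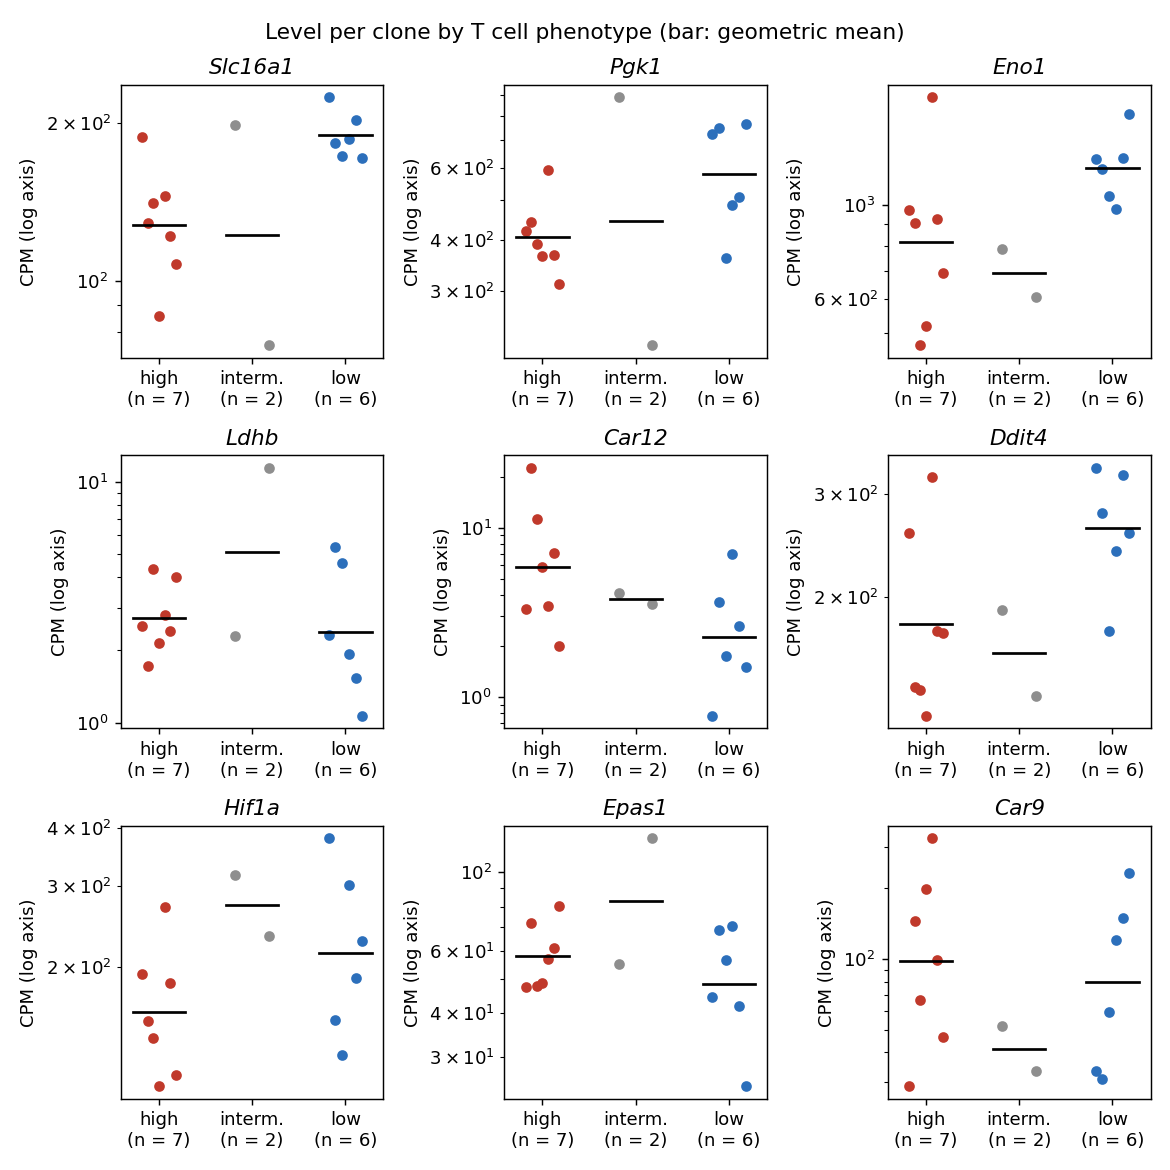
CPM per clone on log axes for 9 genes, by T cell phenotype, with the geometric mean of each group as a bar. Points of high and low clones overlap in every panel, and for Slc16a1 and Eno1 a single high clone, bulk_2838c3 and bulk_6556c4, reaches into or above the range of the low clones.

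Both intermediate clones were compared in the same fit. Against low clones, no gene of 17905 (0.0%) was called by edgeR. An unadjusted p under 0.05 was found for 6.27% of genes, and DESeq2 called 26, none of them a member. Of the members, 30 of 36 were below 0, against 50.7% of all genes, with medians of -0.43 for glycolysis genes and -0.49 for hypoxia genes. That lean rested much on bulk_7160c5: without it 23 were below 0 and the median of the members was -0.17, and without bulk_6422c5 the median was -0.88. The low clones also serve the comparison of high with low, so the lean in both comparisons is not independent.

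The intermediate clones measured 608 CPM (bulk_7160c5) and 787 CPM (bulk_6422c5) of Eno1, both below all 6 low clones, with a log2 difference of -0.83 (SE 0.40, edgeR adjusted p = 0.787). Gpi1, which interconverts glucose and fructose phosphates, measured 422 and 428 CPM, also below the low clones, which reached from 453.5 to 785 CPM (log2 difference -0.53, SE 0.28, edgeR adjusted p = 0.821). The share of all genes lying fully apart between these few clones was not counted. The 0.112% given for high and low clones does not apply here. For Ddit4 the values were 135 and 190.1 CPM (log2 difference -0.72, SE 0.34, edgeR adjusted p = 0.787). Egln3 measured 67.5 and 113 CPM against 104 to 233 CPM (log2 difference -0.82, SE 0.43, edgeR adjusted p = 0.818). For both genes bulk_6422c5 lay within the range of the low clones and bulk_7160c5 below it.

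Ldhb and Epas1 were higher on average, through 1 clone. Ldhb, the heart-type lactate dehydrogenase subunit (chr6:142490249-142507957), measured 11.4 CPM in bulk_7160c5 and 2.30 CPM in bulk_6422c5, against 1.07 to 5.33 CPM in low clones. Its log2 difference of 1.30 (SE 0.58, edgeR adjusted p = 0.783) was -0.27 without bulk_7160c5. Epas1 (chr17:86753700-86833410) measured 125 CPM in bulk_7160c5 and 55.2 CPM in bulk_6422c5, against 24.8 to 70.4 CPM in low clones. The log2 difference was 0.82 (SE 0.34, edgeR adjusted p = 0.747).

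Clone bulk_7160c5 also had the highest sums of endothelial markers (284 CPM, others 67.6 to 198), fibroblast markers (21920 CPM, others 4215 to 14200), macrophage markers (1824 CPM, others 416 to 1159) and T cell genes (36.2 CPM, others 1.92 to 18.04). Epas1 is a gene of endothelium as well as of hypoxic cells, and the low clone bulk_6694c2 had both its lowest level, 24.8 CPM, and the lowest endothelial sum, 67.6 CPM. Other clones did not follow that order. Epas1 measured 80.2 CPM in bulk_7160c2, with an endothelial sum of 114 CPM, but 61.1 CPM in bulk_6620c1, with a sum of 192 CPM. All markers of these 4 lists were above 0 in every phenotype. Their part in the results was not tested.

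Between high and intermediate clones, edgeR called 1 of 17905 genes (0.00559%), which was no member, and 3.94% of genes had an unadjusted p under 0.05. Of the members, 7 of 36 were below 0, against 50.7% of all genes. This lean too rested on bulk_7160c5: without it 18 were below 0 and the median was 0.02, while without bulk_6422c5 5 were below 0 and the median was 0.58. Pfkl, which commits sugar to glycolysis (chr10:77986947-78010083), measured 241, 307 and 520.2 CPM as lowest, median and highest of the high clones and 174 and 295 CPM in the intermediate clones. Its log2 difference was 0.58 (SE 0.27, edgeR adjusted p = 0.9996). Ldhb differed by -1.28 (SE 0.56) and by 0.29 without bulk_7160c5, Epas1 by -0.61 (SE 0.34) and by 0.09 without bulk_7160c5, Hif1a by -0.73 (SE 0.36), Car9 by 1.61 (SE 0.91) and Gpi1 by 0.39 (SE 0.28), each with an edgeR adjusted p of 0.9996. The groups overlapped for each of these genes.

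**Figure D3:**
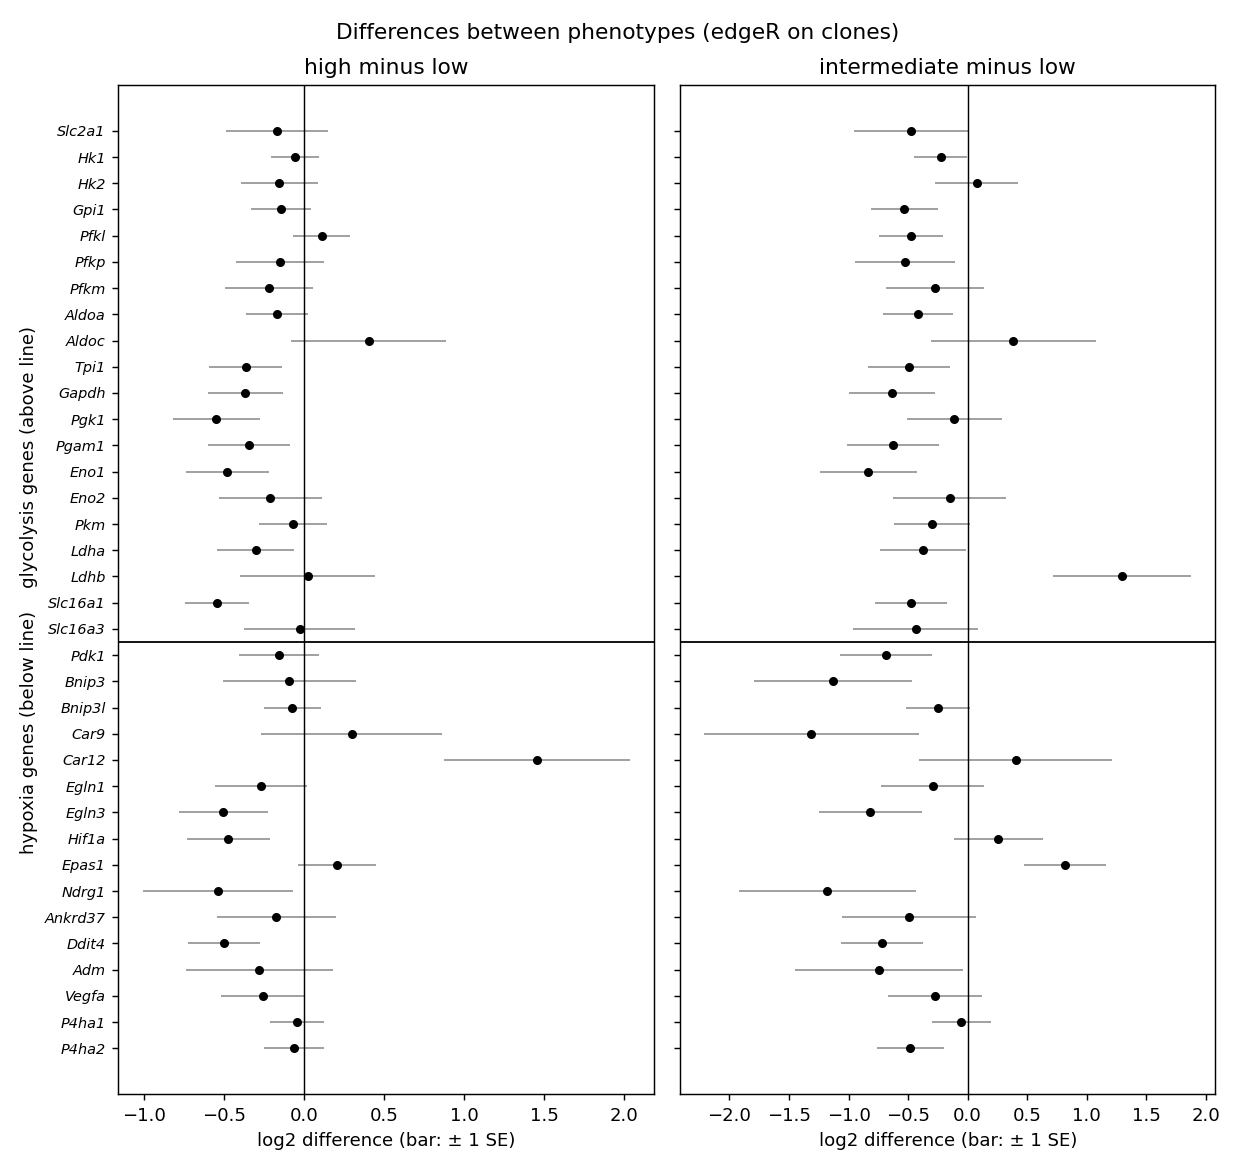
Log2 differences (points) with 1 SE (bars) from edgeR for the 36 genes, high minus low clones on the left and intermediate minus low clones on the right. In each panel 30 of 36 points lie left of 0. Most bars of 1 SE reach 0 in the left panel, while most in the right panel stop short of it.

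The rest of both pathways was read from 2 further lists of 40 genes each. Of the other glycolysis genes 37 of 40 were tested, and of the other hypoxia genes 40 of 40. None was called in any of the 3 comparisons of phenotypes. Between high and low clones their medians were -0.01 and -0.10, nearer to 0 than the members, with 21 of 37 and 25 of 40 below 0. Gbe1, the glycogen branching enzyme, averaged 17.7 ± 4.24 CPM over the 7 high clones and 26.2 ± 11.8 CPM over the 6 low clones (± SD; log2 difference -0.57, SE 0.23, edgeR adjusted p = 0.745). Arnt2, a partner of the HIF proteins, had a log2 difference of -2.56 (SE 1.07, edgeR adjusted p = 0.749), and most of it lay in 1 low clone, bulk_6419c1, with 62.2 CPM, while the median was 2.28 CPM over low clones and 1.39 CPM over high clones. Slc2a2, the glucose transporter of liver and beta cells, stayed under 1 CPM in all clones, averaging 0.178 ± 0.118 CPM over high clones and 0.421 ± 0.354 CPM over low clones (± SD; log2 difference -1.25, SE 0.62, edgeR adjusted p = 0.774).

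For the intermediate clones, Lox, which cross-links collagen, measured 172 CPM in bulk_6422c5 and 468 CPM in bulk_7160c5, against 117 to 302 CPM in low clones (log2 difference 0.93, SE 0.37, edgeR adjusted p = 0.707). Here too the higher of the intermediate clones was the one with the most fibroblast transcripts. Ak4, a mitochondrial adenylate kinase, measured 6.05 and 6.21 CPM against 11.6 to 56.2 CPM (log2 difference -2.29, SE 1.02, edgeR adjusted p = 0.783). These groups did not overlap, but the share of all genes of which this holds was not counted. Gbe1 differed by -0.77 (SE 0.36, edgeR adjusted p = 0.787). Between high and intermediate clones Arnt2 differed by -3.32 (SE 1.31), Insig2, which restrains sterol synthesis, by 0.46 (SE 0.20) and Angptl4, an inhibitor of lipoprotein lipase, by -0.72 (SE 0.33), each with an edgeR adjusted p of 0.9996.

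Levels differed widely over the 15 clones. The phenotypes were pooled for these values, which thus include any difference between phenotypes. The SD of log2 CPM over the 15 clones had a median of 0.50 for glycolysis genes and 0.56 for hypoxia genes. It was 0.45 for all genes tested and 0.33 for the 10154 genes above 10 CPM, a level that most members also exceed. The widest hypoxia genes were Car12, Car9 and Ndrg1. Car12 ranged 29.2-fold, from 0.773 CPM in bulk_2669c4 to 22.6 CPM in bulk_6421c2. Car9 ranged 11.3-fold, from 28.7 CPM in bulk_2838c3 to 326 CPM in bulk_6556c4, and Ndrg1, 11.1-fold, from 79.6 CPM in bulk_7160c5 to 884.5 CPM in bulk_6419c1. The widest glycolysis genes were Ldhb (10.7-fold), Aldoc (9.71-fold, from 16.2 to 157 CPM) and Slc16a3 (4.22-fold, from 64.7 CPM in bulk_6555c3 to 273 CPM in bulk_6556c4). The narrowest ranges among the 36 were those of Hk1 (1.94-fold), P4ha1 (2.10-fold) and Bnip3l (2.12-fold).

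Tumours of one clone could be compared in bulk_2669c4 and bulk_2838c3. In the median, glycolysis genes differed by 0.19 on the log2 scale between the tumours of bulk_2669c4 and by 0.14 between those of bulk_2838c3, less than the 0.24 and 0.37 of all genes tested. Hypoxia genes differed by 0.37 and 0.53, more than all genes in both clones. The genes tested were not matched to the members in level for these values, so the contrasts with them may partly reflect level. Gapdh was close in both, with 2890.0 and 3012 CPM in bulk_2669c4 and 2160.0 and 1993 CPM in bulk_2838c3. Car9 was not: it measured 14.3 and 45.8 CPM in the tumours of bulk_2669c4, and 44.4 and 16.7 CPM in those of bulk_2838c3. Ndrg1 measured 838.5 and 343.5 CPM in bulk_2838c3. The log2 differences of Car9 between tumours of one clone were 1.68 and 1.41, and its SD over clones was 1.15. A difference between 2 tumours and an SD are unlike measures, so these values do not show which spread is larger.

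Glycolysis and hypoxia genes ordered the clones similarly. Each gene was set against its own mean over the clones, and the median deviation was taken within each gene group. Clone bulk_6556c4, T cell high, was first for both, at 0.55 for glycolysis and 0.64 for hypoxia genes, and bulk_6694c2, T cell low, was second for both at 0.49 and 0.45. The low clone bulk_6419c1, at 0.33 and 0.36, was at rank 4 for glycolysis and rank 3 for hypoxia genes. At the other end lay the high clones bulk_6555c3 (-0.41 and -0.57), bulk_7160c2 (-0.42 and -0.72) and bulk_6499c4 (-0.47 and -0.63) and the intermediate clone bulk_7160c5 (-0.58 and -0.53). Both ends of the order held T cell high clones, while no low clone had a median under -0.06 for glycolysis genes or -0.17 for hypoxia genes.

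The gene groups parted in a few clones. In bulk_2669c4, T cell low, glycolysis genes stood at rank 3 of 15 with 0.41 but hypoxia genes at rank 9 with 0.03. Its Gapdh, 2929 CPM, and Pgam1, 216 CPM, were the highest of all clones, its Hif1a the highest at 380.5 CPM, and its Car12 the lowest. In the high clone bulk_6421c2 hypoxia genes stood at 0.13 and glycolysis genes at -0.12, with the highest Pfkl, 520.2 CPM, the highest Pdk1, 124 CPM, and the lowest Gapdh, 1042 CPM, of the 15. Pdk1 codes for a kinase that inhibits pyruvate dehydrogenase, the mitochondrial enzyme that turns pyruvate into acetyl-CoA. In bulk_6555c3 none of the 20 glycolysis genes was above its own mean, yet Car9 measured 198.5 CPM, exceeded only in bulk_6556c4 and bulk_6694c2.

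Sums of other cell types' markers overlapped between the ends of this order. The 4 clones at the lower end had fibroblast sums of 14200 (bulk_6555c3), 10280 (bulk_7160c2), 8354 (bulk_6499c4) and 21920 CPM (bulk_7160c5), against 7911 (bulk_6556c4), 8790 (bulk_6694c2), 5063 (bulk_2669c4), 9736 (bulk_6419c1) and 11480 CPM (bulk_6620c1) in the first 5 by glycolysis genes. Duct markers, which carcinoma cells share, stood at 10070, 5541, 8506, 7760 and 7585 CPM in those first 5 and at 8292, 7798, 10600 and 5759 CPM in the last 4. Heart markers summed to 477.6, 374.3, 218.9, 35.4 and 134.7 CPM in the first 5 and 75.2, 60.4, 90.6 and 52.2 CPM in the last 4. Clones bulk_6556c4 and bulk_6694c2 had the highest heart sums of the 15 clones. Granulocyte markers stood at 470.6, 111, 223, 217 and 226 CPM, and at 44.2, 139, 112 and 247 CPM. Endothelial markers stood at 177.5, 67.6, 110.0, 183 and 192 CPM, and at 149, 114, 150.5 and 284 CPM. Red blood cell genes ranged from 69.5 to 2079 CPM. The part of these cells in the levels was not tested.

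**Figure D4:**
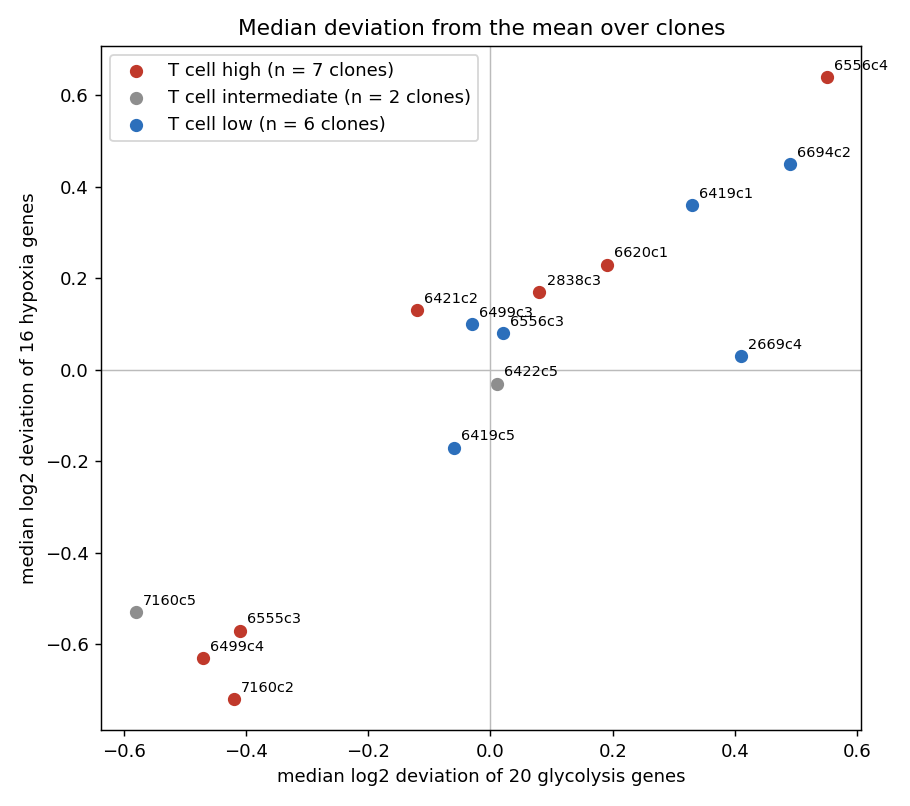
Median log2 deviation of the 16 hypoxia genes (vertical) against that of the 20 glycolysis genes (horizontal) for 15 clones, coloured by T cell phenotype. Clones run from bulk_7160c5 and bulk_6499c4 at the lower left to bulk_6556c4 at 0.55 and 0.64 at the upper right, with high clones at both ends. The points share library and depth between the axes, so they describe the clones without a test.

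Some clones share the number before the letter c, whose meaning the labels do not explain. For 2 such numbers one clone is T cell high and the other T cell low, and the members went opposite ways. In bulk_6499c4 (high), 31 of 36 members were lower than in bulk_6499c3 (low), with a median log2 difference of -0.60, while 51.0% of all genes were higher. In bulk_6556c4 (high), 33 of 36 were higher than in bulk_6556c3 (low), with a median of 0.50, while 50.6% of all genes were higher. The same 28 members were lower in bulk_6499c4 and higher in bulk_6556c4. With 1 tumour on each side, neither difference has a test. Summing all libraries of each clone gave 28 of 36 lower at a median of -0.31, and 32 of 36 higher at a median of 0.34.

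In the first pair the most negative log2 differences were those of Egln3, which hypoxia itself induces, with 54.9 CPM in bulk_6499c4 and 148 CPM in bulk_6499c3, Bnip3, with 31.3 and 76.1 CPM, and Hif1a, with 140.0 and 301 CPM. Eno1 measured 469 and 974 CPM and Gapdh 1105 and 2090 CPM. In the second pair the largest positive log2 difference was that of Adm, the vasodilator adrenomedullin, with 87.6 CPM in bulk_6556c4 and 24.3 CPM in bulk_6556c3. Slc2a1 measured 576 and 249.8 CPM, Bnip3 185 and 82.6 CPM, and Car9 326 and 149.8 CPM. Car12 and Ldhb were higher in the high clone of both pairs, at 11.2 and 6.99 CPM, then 3.42 and 2.61 CPM for Car12, and at 4.34 and 1.93, then 2.80 and 1.54 CPM for Ldhb. Slc16a1 was lower in the high clone of both pairs, at 141 and 187 CPM, then 145 and 202 CPM.

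The other shared numbers show how far clones of one number can differ without a contrast of high and low. Of the 36 members, 32 were higher in bulk_6419c1 than in bulk_6419c5, both T cell low, with a median of 0.44, while 52.4% of all genes were higher. In bulk_7160c2 (high), 23 were higher than in bulk_7160c5 (intermediate), with a median of 0.16, while 48.8% of all genes were higher.

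Several members differed between the 2 classes of libraries. With the clone as a block over 34 libraries, 15 of the 36 members were called between libraries with and without liver and heart transcripts, 8 higher and 7 lower in libraries with them, beside 51.3% of 16623 genes. Since nearly all libraries with the transcripts are tumours numbered 1, these calls are as much those of the tumour number. A share of 15 in 36 is below that background. Ldhb measured 8.38 to 90.1 CPM (median 42.1) with the transcripts and 1.11 to 11.5 CPM (median 2.42) without, a log2 difference of 3.87 (SE 0.40, edgeR adjusted p = 1.263e-07). Eno2, the neuronal enolase, had a median of 16.8 CPM with and 2.90 CPM without (log2 difference 2.25, SE 0.26, edgeR adjusted p = 5.045e-07). Epas1 had medians of 128 and 57.6 CPM (1.13, SE 0.18), Car12 of 9.94 and 3.56 CPM (1.41, SE 0.23) and Bnip3 of 187 and 95.0 CPM (0.91, SE 0.17).

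Lower in libraries with the transcripts were Hk2 (medians of 166 and 267 CPM, log2 difference -0.72, SE 0.13), Slc16a3 (84.7 and 162 CPM, -0.73, SE 0.15), P4ha1 (122 and 181 CPM, -0.52, SE 0.07) and P4ha2 (56.9 and 82.7 CPM, -0.57, SE 0.09). Aldoc, Pfkl and Pkm were also lower, by -0.52, -0.41 and -0.31, and Pfkm, Pdk1 and Bnip3l higher, by 0.41, 0.45 and 0.32. Ldha, with medians of 1182 and 1250 CPM, and Hif1a, with 202 and 192 CPM, were not called. When 14 libraries that were near to one of another clone were left out, edgeR called 1329 of 17305 genes, against 8525 of 16623 with them. Of the 15 members, 13 were no longer called, leaving Bnip3 and Aldoc. The fall in calls was thus not particular to the members. With all libraries, the share of Ldha in the sum of Ldha and Ldhb was 96.1%, and that of Eno1 in the sum of Eno1 and Eno2 was 98.8%.

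**Figure D5:**
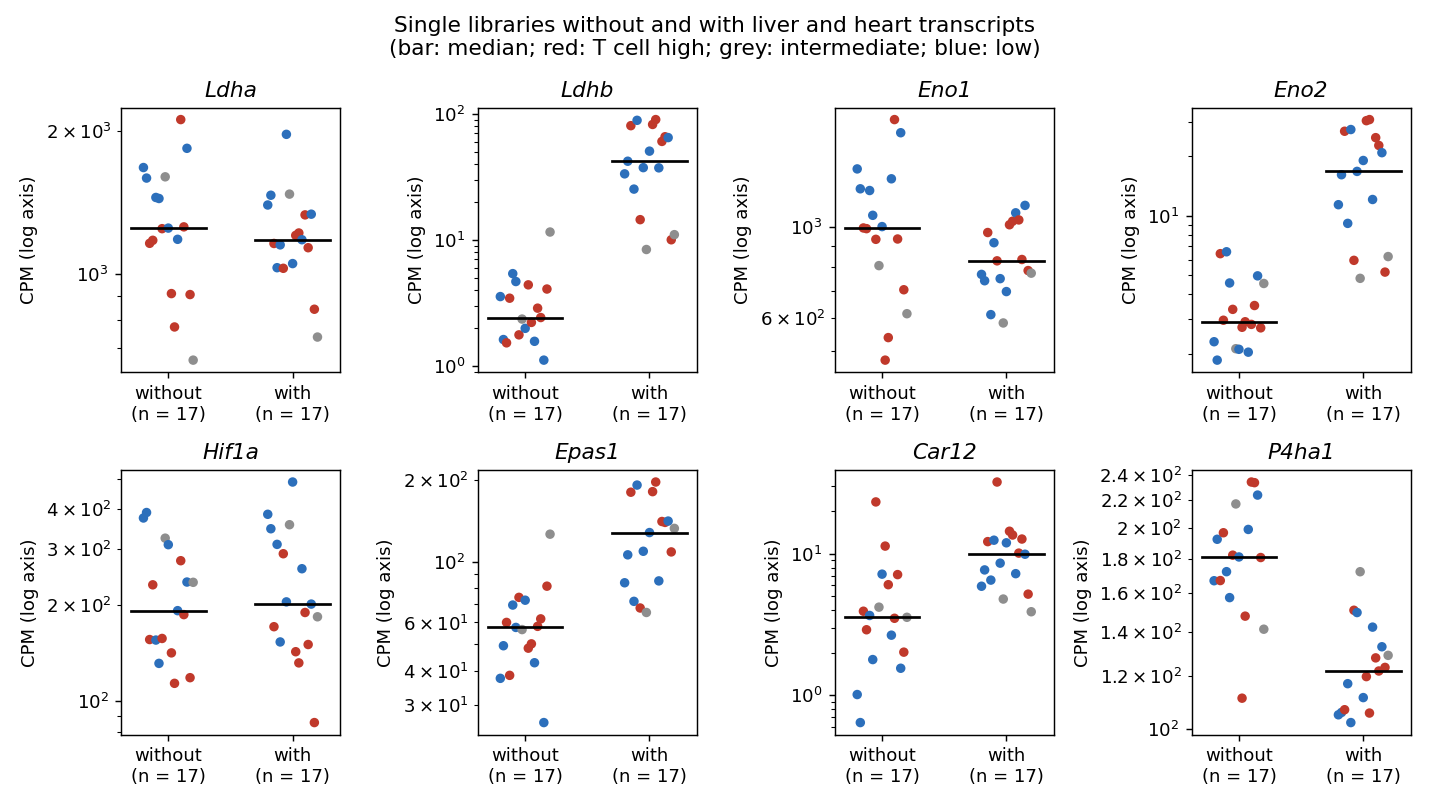
CPM on log axes of 8 genes in 17 libraries without and 17 libraries with liver and heart transcripts, coloured by T cell phenotype, with medians as bars. Ldhb and Eno2 are higher in most libraries with the transcripts, P4ha1 is lower there, and Ldha and Hif1a cover the same range in both.

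The phenotype differences were recomputed within the other class. In the libraries with liver and heart transcripts, 25 of 36 members were below 0 between high and low clones, against 47.8% of all genes, with a median of -0.07, and none was called. Near-identical libraries of this class cross the phenotypes. By the chi-squared measure above, tumours numbered 1 of bulk_6419c5 (low) and bulk_6499c4 (high) stood at 4.34. Those of bulk_6556c4 (high) and bulk_6694c2 (low) stood at 7.25, and the closest tumours of one clone at 36.1. The 25 of 36 are therefore no second test of the lean between phenotypes. Eno1 differed by 0.07 in the libraries with the transcripts, against -0.48 without them. With all 34 libraries summed per clone, which takes in the near-identical ones, the median difference of the members was -0.15, and none was called.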

How the data were processed

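The deposited table holds raw counts per gene for 37 tumour libraries, which the authors made with STAR and featureCounts on mm10, per the submitters' processing notes. The sources used here give no versions, annotation, strand setting or treatment of multiply fitting reads. From 500 ng of RNA, libraries were made with an NEB kit and sequenced on a NextSeq, per the labels' protocols. Gene positions come from GENCODE M21 (37607 of 39017 identifiers found) and promoters from RefSeq.

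Libraries with over 10 CPM of Myh6, Myh7, Cps1 and Serpina3k were set apart, and counts were summed per clone. edgeR 4.0.16 in R 4.3.3 (TMM, default filter, two-sided quasi-likelihood test, 1 coefficient per phenotype, Benjamini-Hochberg adjustment over all genes, threshold 0.05) was the main test, DESeq2 1.42.0 an alternative. SEs are the absolute log2 difference over the square root of F. Deviations and SDs used log2 CPM with a prior count of 2. On simulated counts of 17596 genes, high against low, the test called 89.5% of 200 genes changed 4-fold and 0.0575% of the rest.

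Genes were named by rule: the 3 smallest p per gene group and comparison, the 3 widest SDs, isozyme groups, and up to 3 further pathway genes per comparison; others are named as examples. Members, lists, library classes and tests were chosen with earlier results of these data known. The symbols are those of the table. P-values of the main phenotype comparisons measure the spread between clones, most with 1 tumour. Those of the library classes measure the spread of single libraries within clones, and several of these libraries were nearly the same. Those of the fits on single libraries measure the spread between libraries.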

Additional observations from a re-analysis of the deposited data

Results flagged for a closer look

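Of 72 sets of clones examined (36 genes in high and in low clones), 3 held a value set apart from the rest of its set, and chance gives about 1 in 20. Aldoc, the brain-type aldolase, measured 157 CPM in the high clone bulk_7160c2, where the next high clone had 42.7 CPM, and the intermediate clone bulk_7160c5 with the same number had 73.5 CPM. Hk1 measured 319.6 CPM in the low clone bulk_2669c4, where the next low clone had 237 CPM. Pkm measured 4080.4 CPM in the high clone bulk_6556c4, where the next high clone had 2623 CPM. Clones that share a number went opposite ways: 5 of 36 members were higher in the high clone bulk_6499c4 than in the low clone bulk_6499c3, and 33 of 36 were higher in the high clone bulk_6556c4 than in the low clone bulk_6556c3. That difference was not tested, since each side is 1 tumour.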

How the results depend on the processing

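The main counts of genes called were 0 (high minus low), 0 (intermediate minus low) and 1 (high minus intermediate). DESeq2 called 35, 26 and 13. Leaving out each clone in turn gave 0 to 1, 0 to 147 and 0 to 5 calls, the highest without bulk_2838c3, bulk_6422c5 and bulk_6422c5. Without either intermediate clone that group is 1 library, assumed to vary like the other groups, so the 147 calls describe bulk_7160c5 alone. For intermediate minus low, 1 gene was called on single libraries with the clone ignored. For high minus intermediate, 0 were called with all libraries and 0 with the libraries that hold liver and heart transcripts. Tumours of different clones are no pairs, but their number (1, or above 1) follows the library class in 33 of 34 libraries. A replicate block on it therefore also takes out most of that class. On the 34 single libraries the fit with this block had no term for the clone. Tumours of one clone, and the near-identical libraries, thus counted as separate replicates. That fit gave 77, 828 and 17 calls, among them Pdk1 for intermediate minus low (-0.78, edgeR adjusted p = 0.0491) and no other member. In that fit Lox passed at 1.08. The library class called 8525 genes, and 1329 without the near-identical libraries.

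Upper quartile scaling and no expression filter changed the sign of no named gene. In libraries with the transcripts, high minus low turned to 0.07 for Eno1 and 0.20 for Slc2a2, intermediate minus low to -2.35 for Ldhb and -0.27 for Epas1, and high minus intermediate to 2.53 for Ldhb, 0.51 for Epas1 and -0.07 for Car9. With all libraries Ldhb turned to -1.62 and 1.47 in the intermediate comparisons, and with the block to -0.74 and 0.19. Leaving out each clone in turn, Ldhb ran from -0.27 (without bulk_7160c5) to 2.04 (without bulk_6422c5) for intermediate minus low and from -2.01 to 0.29 for high minus intermediate. In the latter, Epas1 ran from -1.09 (without bulk_6422c5) to 0.09 (without bulk_7160c5) and Angptl4 from -1.24 (without bulk_7160c5) to 0.06 (without bulk_6422c5). The cause was not tested. The median SD over clones of glycolysis genes was 0.33 with all libraries. The 2 intermediate clones give little precision.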

Other observations

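The labels give 3 tumours no phenotype. The tumour of bulk_7062c3, whose library held 0.159 CPM of the summed liver and heart transcripts, measured 429 CPM of Slc2a1, 1650.0 CPM of Ldha, 252 CPM of Car9, 353 CPM of Ndrg1 and 454 CPM of Vegfa, of total counts. All lie within the range of the 17 labelled libraries without those transcripts, which reached from 139 to 547 CPM for Slc2a1 and from 13.8 to 309 CPM for Car9. The tumours of bulk_6883c1 and bulk_6883c4 had 106 and 709 CPM of the summed liver and heart transcripts. They measured 101 and 107 CPM of Slc2a1, 113 and 195 CPM of Vegfa and 16.2 and 7.27 CPM of Eno2. Both Slc2a1 values and both Vegfa values lay below those of all 17 labelled libraries with the transcripts, which reached from 123 to 307 CPM for Slc2a1 and from 305 to 543 CPM for Vegfa, and below the lowest of the 17 without, 139 and 277 CPM. Eno2 lay within the range of the libraries with the transcripts, 4.48 to 31.1 CPM. Gapdh, at 2567 and 1773 CPM, lay above and within their range of 1160.0 to 2403 CPM.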
